A study of Homo sapiens with 8 samples.

Results

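The genes described are the nuclear-encoded subunits of oxidative phosphorylation (OXPHOS), chosen by symbol: protein-coding GENCODE genes whose names begin with NDUFA, NDUFB, NDUFC, NDUFS or NDUFV and a digit, with UQCR, with COX4 to COX8, or with ATP5. The rule uses no measured value, and it found 85 members among the 60659 genes of the count table, of which 37 belong to complex I, 9 to complex III, 19 to complex IV and 20 to complex V. NDUFA4 and NDUFA4L2 were placed with complex IV, because the NDUFA4 protein is now known as a subunit of cytochrome c oxidase. The libraries, made after removal of ribosomal RNA, came from the human neuroblastoma line SK-N-SH and form 4 groups of 2, and all 8 were from cells that received all-trans retinoic acid (ATRA, 10 µM, for 24 h per the labels). In the overexpression experiment, cells carrying FLAG-tagged ZMYND8 on a doxycycline (Dox) inducible lentiviral vector and selected with G418 were set against parental cells, with Dox given to both. The knockdown experiment set ZMYND8 knockdown cells against their KD control, and the labels name no Dox there. The labels describe the control of the overexpression cells as parental, and the sources used here do not say that these cells carried an empty vector or were selected. The comparisons address what a gain or loss of ZMYND8, a chromatin reader that responds to ATRA, does to the RNA of the respiratory chain. Replicates are biological replicates per the labels, and the p-values rest on the spread between 2 such samples a group.

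Oxidative phosphorylation makes ATP from the electrons of NADH and succinate. Complex I takes electrons from NADH and complex II from succinate, complex III passes them to cytochrome c, complex IV hands them to oxygen, and the proton gradient that complexes I, III and IV build drives complex V, the ATP synthase. Most subunits are encoded in the nucleus and imported, and a small core of complexes I, III, IV and V is encoded on the mitochondrial chromosome, so that each of these complexes is assembled from products of both genomes. The nuclear genes are known targets of the transcription factors NRF1, GABP, YY1 and the estrogen-related receptors, and of the coactivator PGC-1alpha (PPARGC1A), which binds several of them. Neurons depend heavily on this pathway, and a shift from glycolysis to OXPHOS accompanies neuronal differentiation.

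RefSeq promoter windows (GRCh38.p14, 250 bases before to 50 after the start site) were given for 67 of the 85 members. Among them, 11 (16.4%) hold GCGCATGC, the core of the NRF1 motif, on either strand, against 3.27% of all 27326 promoters. The ETS motif CCGGAAGT, which GABP binds, occurs in 9 (13.4%) against 4.44%, the YY1 motif AAGATGGC in 10 (14.9%) against 3.03%, and AAGGTCA, the extended core of the estrogen-related receptor motif, in 7 (10.4%) against 3.96%. None of the 4 motifs contains another. A match is a description of the letters and not a bound site. Stretches of 30 bases upstream of the start are printed for members described below, 6 of which rose and 2 fell with overexpression, to show that members moving either way carry the same letters. They are written 5′ to 3′ on the strand of the gene with the match in capitals (for NRF1 and ETS also as its reverse complement, GCATGCGC and ACTTCCGG).
COX5B, NRF1, chr2:97645915-97645944, plus strand: ggcagagctggGCATGCGCaatttccgccc
COX5B, ETS, chr2:97646014-97646043, plus strand: gaagcccgcccCCGGAAGTccctcctgtct
COX6A1, NRF1, chr12:120437928-120437957, plus strand: ggaggtgcagaGCGCATGCtctctcttgcc
NDUFS7, NRF1, chr19:1383823-1383852, plus strand: ttccggtttccGCATGCGCtccgagccgct
ATP5PF, NRF1, chr21:25735156-25735185, minus strand: ccactcaaagaGCGCATGCgtacagagcaa
UQCRH, ETS, chr1:46303640-46303669, plus strand: gagtgtgccgcACTTCCGGccagatcgccg
COX8A, ETS, chr11:63974590-63974619, plus strand: ccagctccagaACTTCCGGccagcgcagcc
NDUFB4, NRF1, chr3:120596166-120596195, plus strand: aagagcacttcGCGCATGCgcatatcaccg
ATP5PD, ETS, chr17:75047053-75047082, minus strand: cccgggaagatACTTCCGGaaccagccctc
Of the 32 members with a promoter entry that rose with overexpression, 14 held any of the 4 motifs, as did 13 of the 29 that were tested and did not rise. By motif these were 6 and 4 for NRF1, 4 and 5 for ETS, 6 and 2 for YY1 and 3 and 4 for the estrogen-related receptor motif. Several members with large changes had no promoter entry and are not in these counts, among them ATP5F1B, ATP5F1D, ATP5MC3, NDUFB9, NDUFC2, UQCRB and UQCRHL.

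Counts on genes totalled 38316523 to 56256979 per library, and ZMYND8 was at 3089 and 3612 counts in the parental, 220691 and 182849 in the overexpression, 3128 and 3374 in the KD control and 1641 and 1640 in the knockdown libraries, as labelled. The 2 experiments stand apart: the mitochondrial chromosome took 0.110% to 0.168% of the counts in the overexpression experiment and 2.92% to 3.41% in the knockdown experiment. Cell state markers moved with overexpression as well. Of 7 adrenergic neuroblastoma markers 6 were tested and all 6 rose, with a summed level of 437.4 and 454.1 TPM (counts per exon length, scaled to the same total in each library) in parental and 1098 and 1237 TPM in overexpression cells, while all 6 mesenchymal markers fell, from 2695 and 2826 to 1293 and 1238 TPM. TH, which encodes the rate-limiting enzyme of catecholamine synthesis, had 0 to 5 counts in each library. With knockdown 3 adrenergic markers fell and none rose (summed level 647.9 and 719.0 TPM in KD control, 499.3 and 543.6 TPM in knockdown cells), and 3 mesenchymal markers rose and 2 fell (1087 and 1105 against 1336 and 1235 TPM). The part of cell state in the results below was not tested. Schwann cell markers were low (2.031 to 7.557 TPM summed, SOX10 at 0 or 1 count in each library), although S100B rose with overexpression, from 12 and 11 to 106 and 104 counts, and striated muscle markers were near 0 (at most 0.2715 TPM summed). With knockdown no Schwann cell marker passed the test, and no muscle marker had enough counts to be tested in either comparison. In these bulk samples, less RNA of a gene per cell and fewer cells that express it cannot be told apart.

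Per exon length, the members spanned a wide range. The length is that of all annotated exons of a gene together, 494 bases for COX8A, 548 for NDUFS5 and 12600 for UQCRB. Levels and ranks in TPM depend on it. By counts, NDUFS1 of complex I (7561 to 10821 per library) lay above NDUFS5 (696 to 5810). ATP5F1B, the catalytic beta subunit of ATP synthase, had the highest mean level of all members, 844.0 TPM over the 8 libraries. UQCRH, the hinge protein next to cytochrome c1, was highest in complex III (278.6 TPM). For complexes I and IV the order differed between the experiments. Over all 8 libraries the highest means were those of NDUFS5 (350.1 TPM), an accessory subunit of complex I, and COX8A (266.6 TPM), the ubiquitous form of a small complex IV subunit. Both ranks come from the knockdown experiment, with 552.1 to 607.1 TPM for NDUFS5 and 352.8 to 425.7 TPM for COX8A. In the overexpression experiment NDUFS5 lay at 113.2 to 143.4 TPM, below NDUFB7 (246.1 to 313.3 TPM), and COX8A at 115.1 to 172.0 TPM, below COX5B (175.0 to 297.9 TPM). The median member had a mean of 57.69 TPM and 11 members had a mean below 1 TPM. The lowest of each complex were NDUFA3 in complex I (0 to 4 counts per library), UQCRHL in complex III (mean 5.419 TPM), COX7B2 in complex IV (0 counts in all 8 libraries) and ATP5MGL in complex V (0.2244 TPM). For NDUFA3 97.3% and for NDUFA6 and COX8C all of the exonic 31-base sequences also occur on alternate contigs of the genome, where reads with several matches are commonly not counted, so their low counts are no measure of their RNA. NDUFC2-KCTD14 and ATP5MF-PTCD1 are read-through genes that share 99.6% and 87.9% of their exons with neighbours on the same strand. Overlaps with other genes also cover 35.4% of the exons of COX8A on the same strand. On the other strand they cover 38.4% for ATP5PF and 35.1% for NDUFB2, among others, and the strand setting of the counts is not known. After the filter on low counts 76 members could be tested for overexpression and 75 for knockdown.

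The SK-N-SH cells expressed the ubiquitous forms of the subunits that have a tissue-specific partner. COX4I1, the ubiquitous form of the largest nuclear subunit of complex IV, lay at 116.5 to 163.2 TPM, and COX4I2, known from lung, at 0 to 3 counts. COX6A1 lay at 56.99 to 167.4 TPM and its heart and muscle form COX6A2 at 0 or 1 count. COX7A2 lay at 153.7 to 204.2 TPM and its muscle form COX7A1 at 0 to 3 counts. The testis forms COX7B2 and COX8C had at most 1 count in any library (for COX8C the limit given above holds), against 46.15 to 76.92 TPM for COX7B and 115.1 to 425.7 TPM for COX8A. The testis form COX6B2 and NDUFA4L2, a paralog of NDUFA4 known to be induced by hypoxia, were low but not absent, at 3 to 82 and 7 to 54 counts. The 3 genes for the c subunit of the ATP synthase rotor, whose mature proteins are identical, were all expressed, ATP5MC2 at 62.48 to 83.32 TPM, ATP5MC3 at 47.29 to 125.4 TPM and ATP5MC1 at up to 43.49 TPM.

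With ZMYND8 overexpression, 39 of the 76 tested members rose, 9 fell and 28 did not pass the test (edgeR quasi-likelihood test, Benjamini-Hochberg adjusted p below 0.05 over 20835 genes, mean normalized count above 20). Over all tested genes 26.6% rose and 27.8% fell. The median log2 fold change of the members was 0.19, beside 0.03 over all tested genes and -0.12 over the 8235 genes with a mean above 1000. The replicates of both groups did not overlap for 62 members, against 80.3% of all tested genes. The changes were small: only 2 members, COX6B2 and UQCRHL, met the rule of a 2-fold increase, and 0 that of a 2-fold decrease, while 11.8% and 6.84% of all genes did. The summed share of the members in all counts was 0.413% and 0.403% in the parental and 0.560% and 0.573% in the overexpression libraries. A higher share was not particular to them: short coding genes as a group took 0.525% and 0.498% in the parental and 0.690% and 0.655% in the overexpression libraries. Such shares rest on library totals alone. Scaling decides how many rise: with library totals alone 58 rose and 4 fell, and with upper quartile factors 45 and 4, but the median of all genes then moved to 0.286 and 0.109 as well, and the members' median stayed above it, at 0.445 and 0.268.

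**Figure D1:**
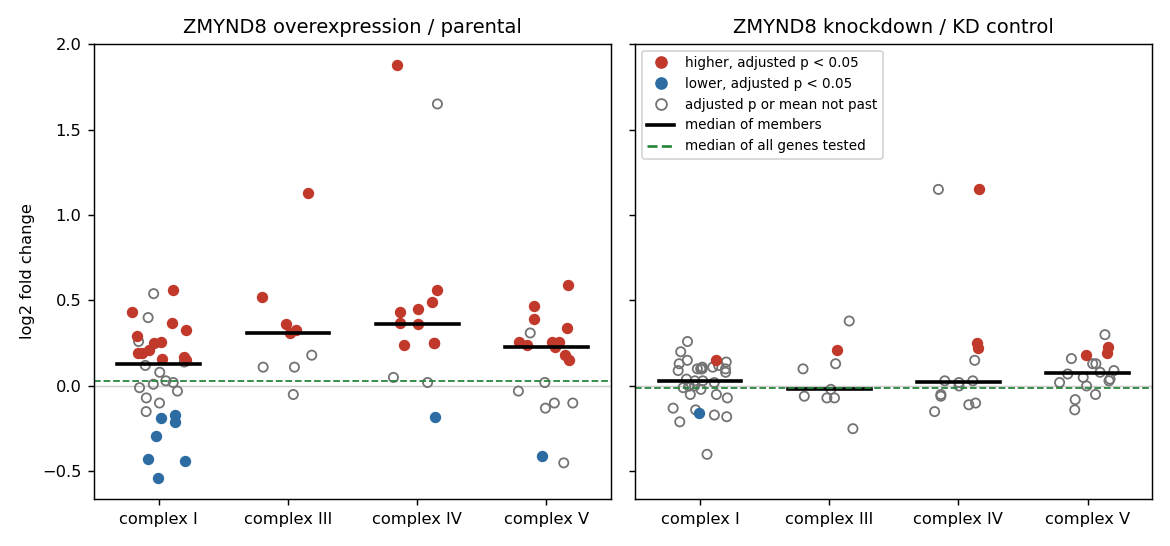
Log2 fold change of each tested member (points) by complex for ZMYND8 overexpression against parental cells (left) and ZMYND8 knockdown against KD control cells (right), with filled points for members past the test, black lines for the members' median and a dashed green line for the median of all tested genes. With overexpression the medians of complexes III (0.31), IV (0.37) and V (0.23) lie above 0.03, the median of all genes. Of the 9 members that fell 7 are in complex I, which holds 34 of the 76 tested members. Most points of the knockdown lie around 0.

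Members of complex I moved both ways, as did all tested genes, of which 26.6% rose and 27.8% fell. Of its 34 tested members 13 rose and 7 fell, with a median log2 fold change of 0.13. With library totals alone 22 rose and 3 fell, and with upper quartile factors 15 and 3. Among the reported subunits of the electron path, NDUFV1, which binds NADH, rose by 0.29 (SE 0.050, adjusted p = 0.000473) and NDUFS1 by 0.15 (SE 0.048, adjusted p = 0.0171). NDUFS3 and NDUFS7 near the quinone site rose by 0.37 (SE 0.057) and 0.33 (SE 0.069), but 51.4% of the NDUFS7 exons overlap other genes on the other strand. NDUFS8 and NDUFV2, of the same path, had log2 fold changes of only 0.08 and 0.03. NDUFB9, an accessory subunit of the membrane arm, had 1234.7 and 1128.7 normalized counts in parental and 1739.8 and 1738.8 in overexpression cells, a rise of 0.56 (SE 0.064, adjusted p = 2.66e-05). NDUFC2 (chr11:78068297-78079862, minus strand), also of the membrane arm, fell from 1836.3 and 1740.5 to 1286.5 and 1162.1 (log2 fold change -0.54, SE 0.068, adjusted p = 4.9e-05), and 18.6% of its exons overlap its read-through gene. For both genes the lower group ended below the lowest library of the other. NDUFB3 (-0.43), NDUFB4 (-0.29) and NDUFB2 (-0.17) of the membrane arm fell too, as did NDUFV3 (-0.21) and NDUFS4 (-0.19), an accessory subunit needed to attach the NADH-binding module. NDUFS5, an accessory subunit, had 1033.8 and 788.1 against 878.9 and 760.2 normalized counts, groups that overlapped.

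All 5 of the 9 members of complex III that passed the test rose. With library totals alone all 9 rose and with upper quartile factors 8. UQCRB, a small subunit at the quinone site, went from 1276.2 and 1083.3 to 1679.8 and 1702.7 normalized counts (log2 fold change 0.52, SE 0.078, adjusted p = 0.000188). The core proteins UQCRC2 (5396.8 and 5487.8 to 6933.3 and 7080.7, log2 fold change 0.36, SE 0.047) and UQCRC1 (0.31, SE 0.050) rose by less. UQCRH rose from 3806.2 and 3645.2 to 4752.7 and 4610.2 normalized counts, by 0.33 (SE 0.050, adjusted p = 0.000212). In each of these 4 genes both overexpression libraries were above both parental libraries. UQCRHL (chr1:15807169-15809348, minus strand), an intronless copy of UQCRH (chr1:46303698-46316776, plus strand), had 44.9 and 55.7 against 100.3 and 121.2 normalized counts (log2 fold change 1.13, SE 0.22, adjusted p = 0.00116). Of its exonic 31-base sequences 28.1%, and of those of UQCRH 31.4%, occur elsewhere on the chromosomes. The 2 genes thus cannot be fully told apart, and the value of UQCRHL is uncertain. Such sharing is not limited to this pair. It reaches 30.4% for COX7B, 27.8% for UQCRFS1, 25.6% for ATP5PB, 25.4% for ATP5F1A and 25.1% for NDUFV3. COX6A1 lies between UQCRFS1 and ATP5PB, and NDUFS5 is at 21.0%. How far this sharing affects the small changes given for these members was not tested. UQCRFS1, the Rieske iron-sulfur protein, had a log2 fold change of 0.11 that did not pass the test (adjusted p = 0.0722).

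Complex IV had the highest median, 0.37, with 10 of 14 tested members higher and 1 lower. COX5A (chr15:74919791-74938083, minus strand) rose from 1444.6 and 1190.9 to 1971.9 and 1909.2 normalized counts (log2 fold change 0.56, SE 0.083, adjusted p = 0.000177), COX6B1, which lies between the monomers of the dimer, from 2405.4 and 2123.8 to 3064.9 and 3295.2 (0.49, SE 0.068), and COX5B, which binds zinc, from 3553.7 and 3154.2 to 4374.6 and 4781.6 (0.45, SE 0.067). No parental library reached an overexpression library in these genes. Of the members with a tissue form, COX4I1 rose by 0.24, COX6A1 by 0.36, COX7B by 0.43 and COX8A by 0.37, COX7A2L, a factor that joins complexes III and IV, rose by 0.25, and COX7A2 (0.02, SE 0.047) and NDUFA4 (0.05, SE 0.050) did not pass the test. The testis form COX6B2 had 20.2 and 22.3 normalized counts in parental and 73.5 and 84.1 in overexpression cells, a log2 fold change of 1.88 (SE 0.26, adjusted p = 9.89e-05), the highest of all members. It stayed below 2 TPM, and 29.1% of its exons overlap another gene on the same strand. NDUFA4L2 had 11.2 and 6.5 against 29.6 and 25.1 normalized counts (log2 fold change 1.65, SE 0.40, adjusted p = 0.00488), with a mean of 18.1 that misses the minimum of 20. COX6C was the only member of the complex that fell, by 0.18 (SE 0.052, adjusted p = 0.0124), and with upper quartile factors or library totals alone 0 members of the complex fell.

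In complex V 11 of 19 tested members rose and 1 fell. With DESeq2 5 rose and 1 fell, with the length correction 8 and 3, and with library totals alone 15 and 1. ATP5F1B (chr12:56638175-56645984, minus strand, GRCh38) rose from 23085.6 and 23843.8 to 34941.7 and 35567.3 normalized counts, by 0.59 (SE 0.048, adjusted p = 1.74e-06), in the member with the highest level. The alpha subunit ATP5F1A, which alternates with beta in the catalytic ring, rose by 0.34 (SE 0.050), and ATP5F1D, the delta subunit of the central stalk, from 2053.0 and 2281.6 to 2977.1 and 3052.7, by 0.47 (SE 0.060, adjusted p = 5.77e-05). The gamma subunit ATP5F1C (0.02, SE 0.047) and the epsilon subunit ATP5F1E (-0.03, SE 0.067), which sit in the same stalk, did not pass the test. The 3 genes of the c ring rose unequally, ATP5MC3 by 0.39, ATP5MC1 by 0.26 and ATP5MC2 by 0.18. Among the subunits of the peripheral stalk, ATP5PB (0.15), ATP5PF (0.26) and ATP5PO (0.26) rose and ATP5PD (chr17:75038863-75046985, minus strand) fell, from 3618.8 and 3487.4 to 2664.4 and 2677.0 (log2 fold change -0.41, SE 0.050, adjusted p = 4.04e-05). ATP5IF1, which inhibits the enzyme when it runs backwards, rose by 0.23 (SE 0.088, adjusted p = 0.0442), a call that was lost in 9 of 15 alternatives (adjusted p up to 0.23). Members of 1 complex thus moved in opposite directions, each beyond the spread of its replicates.

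**Figure D2:**
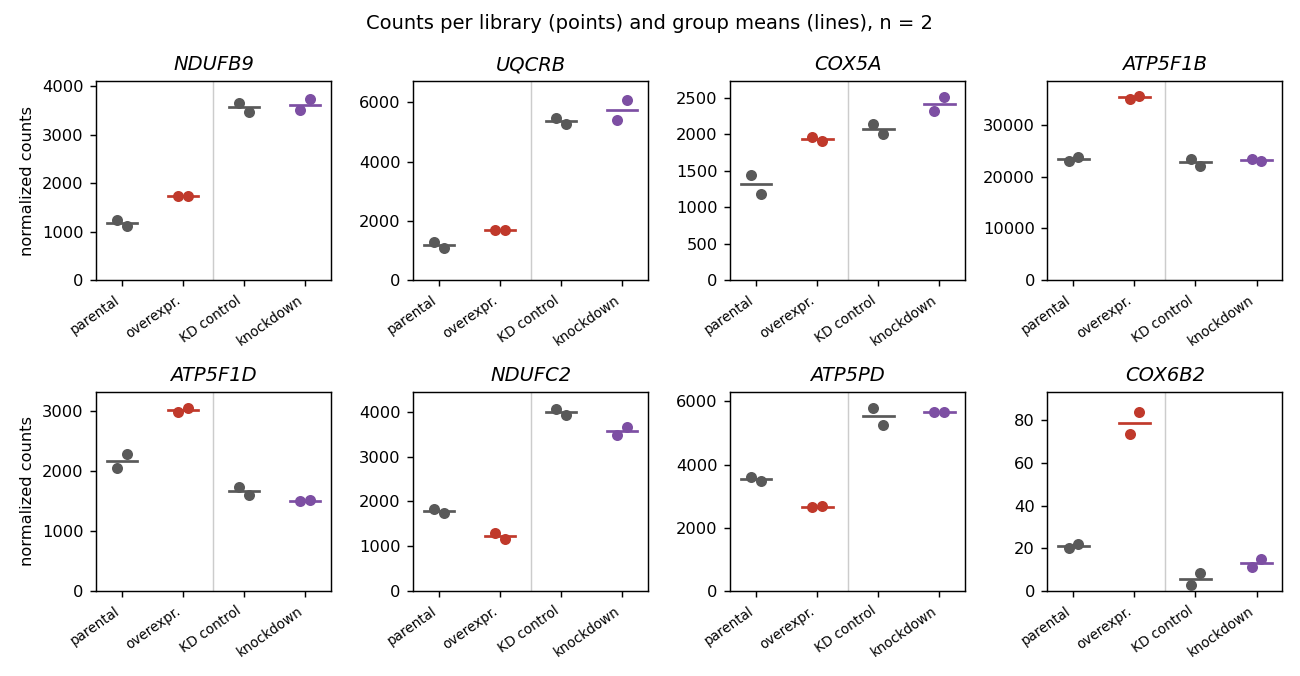
Normalized counts of 8 members in each library (points, with a line at the mean of each group, n = 2), for parental and ZMYND8 overexpression cells left of the grey line and KD control and ZMYND8 knockdown cells right of it. Each experiment was normalized on its own, so levels compare only within a side. NDUFB9, UQCRB, COX5A, ATP5F1B, ATP5F1D and COX6B2 are higher and NDUFC2 and ATP5PD lower in both overexpression libraries than in both parental libraries.

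With ZMYND8 knockdown, 8 of the 75 tested members rose, 1 fell and 66 did not pass the same test, while 13.1% of all 19789 tested genes rose and 10.6% fell. With library totals alone 2 members rose and 4 fell. The median log2 fold change was 0.03 for the members and -0.01 for all genes, and the replicates did not overlap for 35 members, against 61.6% of all genes. A 2-fold increase was met by 1 member (1.36% of all genes) and a 2-fold decrease by 0 (0.596%). Among the members that passed with a mean above 100, COX6C changed most, with 2305.4 and 2280.7 normalized counts in KD control and 2495.6 and 2941.1 in knockdown cells (log2 fold change 0.25, SE 0.075, adjusted p = 0.0370). ATP5F1A rose from 17167.8 and 16453.4 to 19460.8 and 19880.0, by 0.23 (SE 0.051, adjusted p = 0.00856). COX5A (0.22), UQCRH (0.21), ATP5MC2 (0.19), ATP5F1C (0.18) and NDUFV3 (0.15) rose as well, with adjusted p from 0.0209 to 0.0498, and both knockdown libraries were above both controls in each.

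NDUFC2 was the member that fell, from 4053.6 and 3941.2 to 3479.2 and 3671.0 normalized counts (log2 fold change -0.16, SE 0.052, adjusted p = 0.0474), so that it was lower in both experiments. NDUFA4L2 met the 2-fold rule, with 15.1 and 26 normalized counts in KD control and 55.0 and 36.6 in knockdown cells (log2 fold change 1.15, SE 0.34, adjusted p = 0.0340). ATP5F1B was at 23431.2 and 22070.5 against 23338.1 and 23013.2, groups that overlapped. None of the 9 calls passed under all 15 alternatives. The number of members that rose was 1 without KD control replicate 2, 2 without knockdown replicate 2, 5 without KD control replicate 1 and 14 without knockdown replicate 1, and the 2-fold call of NDUFA4L2 was lost without KD control replicate 1, without knockdown replicate 1 and with DESeq2.

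The 2 experiments share no library, so the difference of their effects was tested over all 8 libraries. For 23 members the effect of overexpression was higher than that of knockdown and for 9 it was lower, where 21.4% and 23.2% of all 22619 tested genes differed in these directions. The higher effects were 7 in complex I, 5 in complex III, 8 in complex IV and 3 in complex V, and 7 of the 9 lower effects were in complex I. Large differences included those of ATP5F1D (difference of log2 fold changes 0.61, SE 0.090, adjusted p = 4.38e-05), NDUFA9 (0.56, SE 0.12) and ATP5F1B (0.55, SE 0.072). In the other direction they included that of ATP5PD (-0.45, SE 0.079). Of these members NDUFA9 had a low level, with a mean of 5.873 TPM. By the calls, 4 members rose in both experiments (COX5A, UQCRH, ATP5F1A and ATP5MC2) and NDUFC2 fell in both. Of all tested genes, 26.6% rose and 27.8% fell with overexpression, and 13.1% rose and 10.6% fell with knockdown. The share of all genes called in both experiments was not counted, so such overlaps are not shown to be particular to the members. COX6C and NDUFV3 fell with overexpression and rose with knockdown, though neither fell with upper quartile factors or library totals alone. The knockdown calls of these members held in 5 (NDUFV3) to 14 (ATP5F1A) of 15 alternatives. ZMYND8 itself had a log2 fold change of 5.86 with overexpression and -0.94 with knockdown. No member rose with overexpression and fell with knockdown, where only 1 member fell at all.

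**Figure D3:**
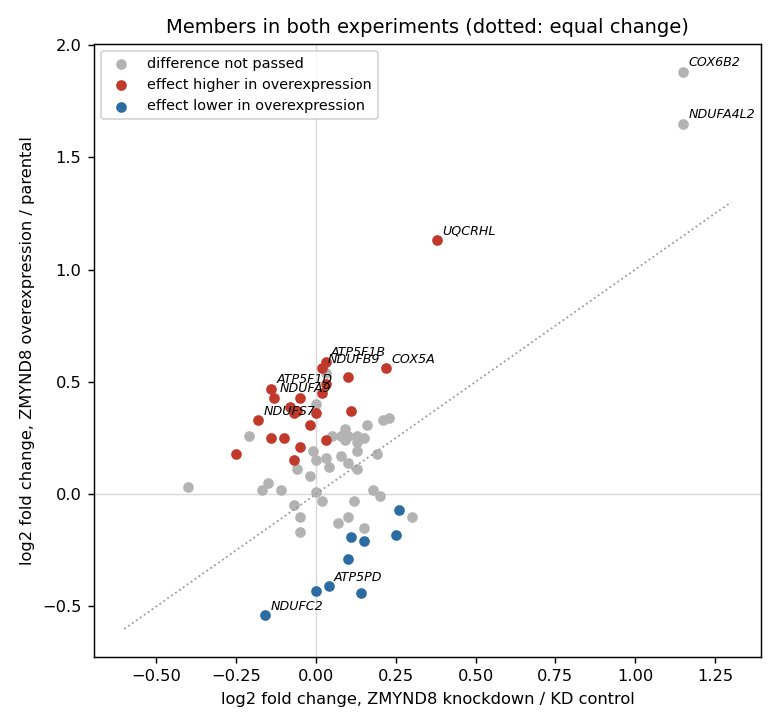
Log2 fold change of each member with ZMYND8 knockdown (horizontal axis) and with ZMYND8 overexpression (vertical axis), coloured where the difference of the effects passed the test, with a dotted line where both would be equal. The 23 members with a higher effect in overexpression spread upwards along a narrow range of knockdown effects, and NDUFC2 and ATP5PD lie among the lowest.

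Genes of the same pathway outside the symbol rule were counted on lists. The counts of these lists, here and below, stand beside the shares over all tested genes. With overexpression 26.6% of all tested genes rose and 27.8% fell, and with knockdown 13.1% rose and 10.6% fell. Cytochrome c (CYCS) rose in both experiments, from 5539.3 and 5247.4 to 8504.7 and 8074.6 normalized counts with overexpression (log2 fold change 0.62, SE 0.052, adjusted p = 2.32e-06) and from 7665.6 and 7918.0 to 10630.0 and 11785.7 with knockdown (0.52, SE 0.059, adjusted p = 0.000133), and the difference between its effects did not pass the test (0.09, SE 0.084). CYC1, which encodes cytochrome c1 of complex III, rose by 0.37 with overexpression, and the other 3 genes of that list of 5 (carriers and subunits with other names) did not pass in either comparison. In complex II, which the nucleus encodes whole, 0 of 4 genes rose and 2 fell with overexpression. SDHC, a membrane anchor, was at 6283.5 and 6354.7 against 4054.8 and 4099.0 normalized counts (log2 fold change -0.63, SE 0.047, adjusted p = 8.81e-07), and SDHD fell by 0.25, while 0 of 4 passed with knockdown. With library totals alone 2 of the 4 rose and 1 fell with overexpression.

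The 13 mitochondrially encoded subunits did not rise with the nuclear ones. With overexpression 0 rose and 5 fell, all 13 with a negative log2 fold change (median -0.45), although 2 and 3 of the 13 turned positive with upper quartile factors and library totals, where 4 still fell. MT-ND2, a core subunit of complex I, had 1635.4 and 1895.5 against 1119.0 and 1370.7 normalized counts (-0.51, SE 0.099, adjusted p = 0.00113). MT-ND6, the subunit encoded on the light strand, had 1031.5 and 1861.1 against 588.6 and 771.1 (log2 fold change -1.10, SE 0.22, adjusted p = 0.00155). With knockdown 5 rose and 0 fell, with MT-ND1 highest (0.35, SE 0.075). The replicates of the mitochondrial share itself differed by as much as the groups in the overexpression experiment (0.110% and 0.163% in parental, 0.128% and 0.168% in overexpression libraries).

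Of 15 regulators of mitochondrial biogenesis 3 rose and 6 fell with overexpression (7 and 2 with library totals alone). PPARGC1A, the coactivator PGC-1alpha, was at 37.0 and 31.6 normalized counts in parental and 2594.5 and 2891.0 in overexpression cells, an 80.2-fold rise (log2 fold change 6.33, SE 0.11, adjusted p = 4.21e-11). The estrogen-related receptors ESRRG and ESRRA rose as well, ESRRG from 799.2 and 902.3 to 3031.7 and 3007.9 (1.82, SE 0.066, adjusted p = 3.36e-09) and ESRRA from 1973.3 and 2100.6 to 3035.3 and 3175.0 (0.61, SE 0.056, adjusted p = 4.47e-06). Whether these changes bear on the members was not tested. All overexpression libraries lay above all parental libraries in these 3 genes. Factors that serve the mitochondrial genome did not: TFAM, which packages and transcribes it, was at 3936.5 and 3644.3 against 3689.3 and 3429.5, TFB2M, which starts its transcription, fell by 0.70 (SE 0.061), TFB1M, which modifies its ribosomal RNA, by 0.65 (SE 0.071), and its polymerase POLRMT by 0.17 (SE 0.052). NRF1 (0.02, SE 0.071) did not pass, and GABPA fell by 0.25.

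With knockdown, 4 of the 15 regulators rose and 3 fell. PPARGC1A moved the other way, from 174.0 and 217.3 to 105.9 and 124.0 normalized counts (log2 fold change -0.77, SE 0.18, adjusted p = 0.00965), and the difference of its effects was 7.09 (SE 0.21, adjusted p = 1.6e-12). TFB1M fell from 1815.6 and 1905.7 to 890.9 and 929.2 (-1.03, SE 0.069, adjusted p = 4.61e-06), so it was lower in both experiments. ESRRG overlapped (4641.0 and 5517.1 against 4392.5 and 5089.2), and MYC rose by 0.75 (SE 0.091). The parental cells held fewer PPARGC1A and ESRRG counts (33 and 34, 712 and 972) than the KD control cells (173 and 226, 4614 and 5738), 2 groups in which ZMYND8 was not manipulated.

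**Figure D4:**
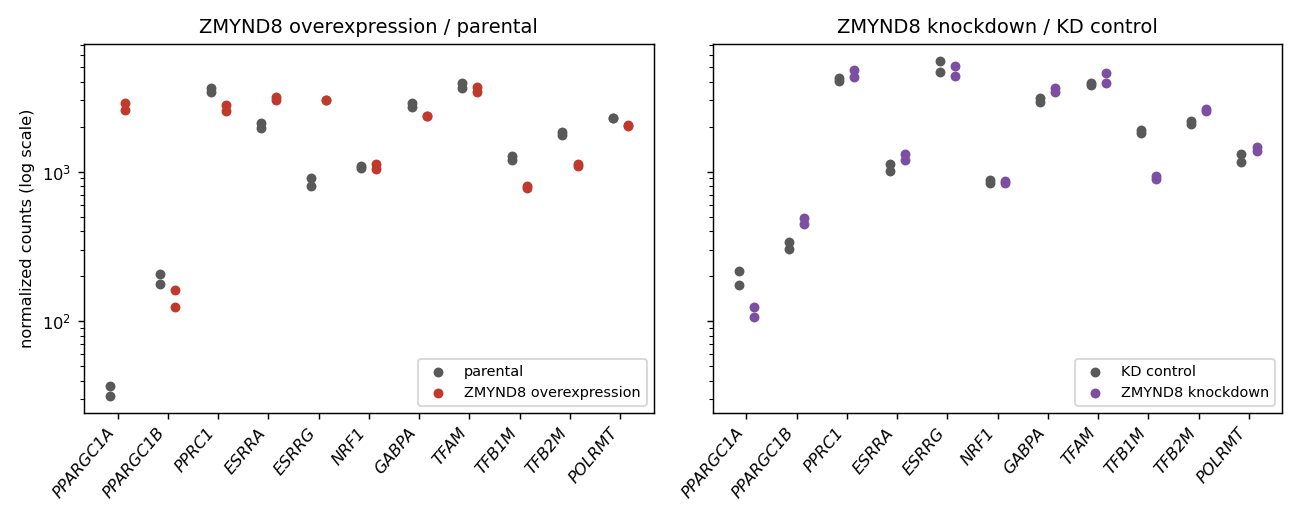
Normalized counts per library on a log scale for 11 regulators of mitochondrial biogenesis in the overexpression experiment (left) and the knockdown experiment (right), with control libraries in grey. PPARGC1A is at 31.6 and 37.0 in parental and 2594.5 and 2891.0 in overexpression libraries and lower with knockdown than in KD control, ESRRA and ESRRG are higher in the overexpression libraries, and TFB1M is lower in the treated libraries of both experiments.

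The assembly factors, which build the complexes without staying in them, gave no common direction with overexpression. For complex I 6 of 16 rose and 7 fell, with ECSIT highest (841.8 and 1011.8 to 1824.0 and 1769.4 normalized counts, log2 fold change 0.95, SE 0.083) and TMEM126B lowest (-0.43). For complex III 1 of 9 rose (LYRM7, 0.45) and 2 fell (UQCC2, -0.38, and TTC19, -0.16), for complex IV 5 of 23 rose and 5 fell, with the copper factor COA6 lowest (801.4 and 672.0 to 367.3 and 418.3, -0.91, SE 0.11), and for ATP synthase 0 of 5 rose and 1 fell (TMEM242, -0.36). These directions turn with scaling: with library totals alone 6 rose and 0 fell for complex I, 3 and 0 for complex III, 14 and 1 for complex IV and 3 and 0 for ATP synthase. With knockdown 0, 2, 3 and 0 of these lists rose and 1 gene of each fell. UQCC6, a small factor of complex III, rose from 248.4 and 217.3 to 433.8 and 441.2 with knockdown (0.91, SE 0.12, adjusted p = 0.000412), LYRM7 by 0.61, and COX15, which makes heme A for complex IV, fell by 0.49.

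The control groups differed from each other in many members as well. On 1 common scale, 44 members were higher in both KD control libraries than in both parental libraries and 26 lower, against 40.8% and 41.4% of all genes, with a median log2 ratio of 0.29 over 76 members and 0 over all genes. ATP5ME was 10.7-fold, NDUFS6 9.06-fold, NDUFS5 4.97-fold, UQCRB 4.10-fold and COX8A 3.88-fold higher in KD control, while NDUFB6, UQCRC1 and NDUFB11 were 1.70-fold, 1.61-fold and 1.57-fold higher in parental cells. For ATP5ME 61.3% of the exons overlap another gene on the other strand. The median log2 ratio was 0.67 in the 11 members with up to 1000 exonic bases and 0.51, 0.26, 0.01 and 0.29 in the 4 classes of longer members, from shorter to longer, where all genes of these 5 classes had 0.18, 0.07, -0.04, -0.04 and 0.06. These controls belong to different experiments and only the parental cells are labelled as given Dox, which cannot be told apart, so no test is given. With overexpression the members of the 5 classes had median log2 fold changes of 0.11, 0.25, 0.18, 0.24 and 0.26, beside 0.09, 0.08, 0.07, 0.01 and -0.04 for all genes. With knockdown the members of up to 1000 exonic bases had 0.07, beside 0 for all genes of that length.

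**Figure D5:**
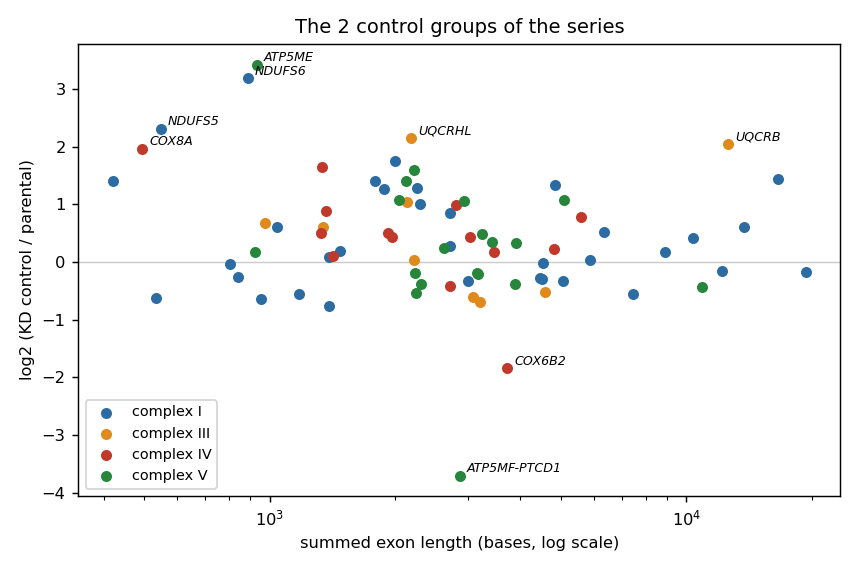
Log2 ratio of KD control to parental cells (means of 2 libraries) for each member against its summed exon length in bases (log scale), coloured by complex. The members highest in KD control are the short genes ATP5ME, NDUFS6, NDUFS5 and COX8A and the longer UQCRHL (2180 bases) and UQCRB (12600 bases). Other short genes, such as NDUFB7 (-0.62) and NDUFB11 (-0.65), have negative ratios. The read-through gene ATP5MF-PTCD1 and COX6B2 lie lowest.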

How the data were processed

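RNA-seq of 8 SK-N-SH libraries (4 groups of 2, assigned from titles and treatments) was used. The authors deposited raw counts, whole reads assigned to a gene, beside each gene's summed exon length. Their methods give trimming with removal of reads below a Phred score of 25, HISAT2 alignment (GRCh38) and featureCounts with GENCODE release 28, and the submitters' processing notes also name DESeq2 and hg38. The strand setting is not given in the sources used here, so overlapping genes are uncertain. Left out were 3 of 60662 lines, which belong to 1 gene split over lines. Symbols and biotypes come from GENCODE release 44, matching 60418 of 60659 identifiers. Gene coordinates, strands and exon overlaps come from the exons that the authors listed beside the counts. Pseudogenes (173) and other noncoding genes (6) with such symbols were no members. Replicate libraries differed by 6.05 to 8.86 chi-square units per degree of freedom, so none was a copy of another.

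The main test was edgeR's quasi-likelihood test (two-sided, version 4.0.16, with limma 3.58.1 in R 4.3.3) after filterByExpr and TMM scaling, with 1 fit over the 4 libraries of each experiment and, for the difference of effects, 1 over all 8. Members rose or fell at a Benjamini-Hochberg adjusted p below 0.05 over all tested genes with a mean normalized count above 20, and the 2-fold rule also asked for a log2 fold change of at least 1 either way. Normalized counts refer to the mean effective library size of an experiment. The fits were tested on simulated counts. Alternatives were RLE and upper quartile factors, library totals alone, DESeq2 (1.42.0), no filter on low counts, a mean above 100, a joint fit, a replicate block, loess corrections for gene length and GC content (span 0.5), removal of mitochondrially encoded genes and ZMYND8, and leaving out each library.

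The members, gene lists (mitochondrially encoded subunits, complex II, carriers and subunits with other names, assembly factors, regulators, and adrenergic, mesenchymal, Schwann cell and muscle markers) and tests were chosen with earlier results of these data known. Named were, per comparison and complex, the 3 members with the largest change among those with adjusted p below 0.05, a mean above 100 and no overlap of replicates, the members with a tissue paralog, ATP5IF1, and the members with the highest and lowest mean TPM. From each list, genes with adjusted p below 0.05 and a log2 fold change of at least 1 either way were named, or else the one with the largest change. The values of 1 member are not reported here. Other genes were named by role after their values were seen. Promoter windows are RefSeq's, and sharing of 31-base sequences was counted over the genome with its 261 alternate contigs.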

Additional observations from a re-analysis of the deposited data

Results flagged for a closer look

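The effects of overexpression and knockdown differed, by a test of the difference over all 8 libraries (edgeR quasi-likelihood test, adjusted p below 0.05), for 23 members with a higher and 9 with a lower effect in overexpression. Values are the log2 fold change with overexpression minus that with knockdown. In complex I they were 0.53 for NDUFB9, -0.39 for NDUFC2 and -0.37 for NDUFV3. Complex III gave 0.42 for UQCRB, 0.42 for UQCRC2 and 0.74 for UQCRHL, whose reads cannot be fully told from those of UQCRH. In complex IV the differences were 0.20 for COX4I1, 0.33 for COX5A, 0.42 for COX5B, 0.35 for COX6A1, 0.46 for COX6B1, -0.43 for COX6C, 0.48 for COX7B and 0.42 for COX8A. Complex V gave 0.55 for ATP5F1B, 0.61 for ATP5F1D, 0.47 for ATP5MC3 and -0.45 for ATP5PD. The experiments differed in more than the direction of the ZMYND8 change. The overexpression cells were transduced and selected with G418 and set against parental cells. The labels name Dox in that experiment only, in both of its groups. The 2 control groups also differed, with PPARGC1A at 33 and 34 counts in parental and 173 and 226 in KD control cells. None of this can be told apart from the difference between gain and loss of ZMYND8.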

How the results depend on the processing

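With overexpression the count of members that rose (39) stayed between 29 (DESeq2) and 58 (library totals alone), and 19 of the 23 named members past the threshold passed under all 15 alternatives, none of the named members changing sign where it passed. The members that fell (9) were 4 with upper quartile factors and 4 with library totals alone. The median of 0.19 was 0.268 with upper quartile factors, 0.445 with totals alone, 0.222 without the filter on low counts and 0.158 with the length and GC correction, and ranged from 0.152 to 0.224 with 1 library left out. The 2-fold increases (2) were 0 with a mean above 100, and 1 to 3 with 1 library left out (1 without overexpression replicate 2, 3 without parental replicate 2).

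With knockdown 8 members rose, but 2 with library totals alone, 1 without the filter on low counts, and 1 to 14 with 1 library left out. The count that fell (1) was 4 with totals alone, 0 with DESeq2, without the filter, with all libraries in 1 fit, with the length correction and with the length and GC correction, and 0 to 5 with 1 library left out (5 without knockdown replicate 2, 0 without KD control replicate 1 and without knockdown replicate 1). The single 2-fold increase was 0 with DESeq2, without the filter and with a mean above 100, and 0 to 1 with 1 library left out. The median of 0.033 turned to -0.024 with totals alone, and ranged from -0.004 to 0.093 with 1 library left out, the negative value coming without KD control replicate 2. The 23 higher differences of effects ranged from 15 to 26 with 1 library left out, 15 coming without KD control replicate 1 and without knockdown replicate 1.

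The titles give both groups of an experiment the same replicate numbers. The deviations of same-numbered libraries correlated at 0.02 (overexpression) and 0.07 (knockdown). With 2 pairs each, these values cannot decide whether such libraries share more than a number. With the replicate block 39 members rose and 10 fell with overexpression, 11 and 1 with knockdown, and 27 and 11 differed in effect, and calls over all genes moved from 11332 to 11512 and from 4707 to 6241. The cause of these changes was not tested. With 2 libraries a group, a change that does not pass is not shown to be absent.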
